A study of Mus musculus with 10 samples.

Results

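Embryonic globins and other genes of red blood cells were followed in palate RNA of mouse embryos at E14.5, in which the TGF-beta type II receptor gene Tgfbr2 was deleted in the neural crest or left intact. The list was Hba-x, Hbb-y, Hbb-bh1, Alas2, Slc4a1, Ahsp, Gata1, Klf1 and Tfrc, and each array probe set annotated with exactly 1 of these symbols was kept. This gave 19 of 45101 probe sets, for 8 of 18194 genes; Ahsp was not analysed here. The mutant group had 5 arrays of secondary palate from Tgfbr2fl/fl;Wnt1-Cre embryos and the control group 5 arrays from Tgfbr2fl/fl embryos, which the titles call wildtype. By these genotypes both groups carry the floxed alleles and only the mutant carries the Cre. All samples are labelled as strain C57B6 with the sex not determined. Wnt1-Cre acts in the neural crest, which forms the palate mesenchyme, and also the pericytes and smooth muscle of facial vessels, whereas blood cells and endothelium arise from mesoderm and keep the receptor gene. The design looks for expression changes that follow loss of the receptor in palate cells; the earlier stage it names was not analysed here.

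Red cells of the midgestation embryo come in 2 waves. Primitive erythroblasts from the yolk sac circulate first and carry the embryonic globins: Hba-x encodes the alpha-like zeta globin, and Hbb-y and Hbb-bh1 encode the beta-like epsilon-y and beta-H1 globins. As these cells mature, beta-H1 transcripts give way to epsilon-y. Definitive red cells from the fetal liver then enter the blood and make adult alpha and beta globin. Alas2 encodes the erythroid enzyme that starts haem synthesis, Slc4a1 the band 3 anion exchanger of the red cell membrane, and Tfrc the transferrin receptor, through which erythroblasts and dividing cells take up iron. Gata1 and Klf1 encode transcription factors of the erythroid lineage that bind GATA and CACCC motifs in globin and haem genes.

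The stretches before the start of 3 of these genes are printed because the 2 globins moved together over the arrays, while Alas2, an erythroid gene that also holds GATA and CACCC matches, had a narrower range. Each shows the 250 bases before the annotated start on the strand of the gene (RefSeq, GRCm38.p6), with matches on either strand in capitals. The GATA motif was searched in 4 forms, as AGATAA, then with a last base of G as AGATAG, and beginning with T as TGATAA and then as TGATAG. The other motifs were CACCC, the CCAAT box and the TATA box as TATAAA. Matches that touch appear as 1 run of capitals. The windows are chr11:32276350-32276599 (plus strand) for Hba-x, chr7:103853208-103853457 (minus strand) for Hbb-y and chrX:150547167-150547416 (plus strand) for Alas2.
Hba-x: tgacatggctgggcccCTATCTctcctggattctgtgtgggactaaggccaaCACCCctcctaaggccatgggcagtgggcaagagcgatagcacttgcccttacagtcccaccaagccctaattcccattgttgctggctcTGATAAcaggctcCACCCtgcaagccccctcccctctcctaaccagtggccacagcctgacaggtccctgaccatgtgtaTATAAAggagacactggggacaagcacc
Hbb-y: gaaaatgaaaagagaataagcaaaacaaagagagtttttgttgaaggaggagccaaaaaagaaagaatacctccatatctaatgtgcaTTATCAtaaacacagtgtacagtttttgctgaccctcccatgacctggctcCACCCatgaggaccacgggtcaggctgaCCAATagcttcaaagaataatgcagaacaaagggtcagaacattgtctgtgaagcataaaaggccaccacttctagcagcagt
Alas2: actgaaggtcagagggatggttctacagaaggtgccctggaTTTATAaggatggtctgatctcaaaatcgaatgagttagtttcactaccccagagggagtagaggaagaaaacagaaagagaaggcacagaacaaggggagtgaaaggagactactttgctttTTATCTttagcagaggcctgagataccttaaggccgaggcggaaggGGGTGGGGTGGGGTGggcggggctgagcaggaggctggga
Hba-x held 2 GATA matches, 2 CACCC matches and a TATAAA at position -28, counted back from the annotated start. Hbb-y held 1 GATA, 1 CACCC and 1 CCAAT match, the last at position -83. Alas2 held 1 GATA match and 3 adjoining CACCC matches between positions -40 and -26, with a TATAAA on the opposite strand at position -209. Windows were found for 6 of the 9 listed genes; the window of Klf1, both of Tfrc and that of Gata1 also held CACCC, and Klf1 held 1 GATA match. Among all 32851 windows of the same length, 26.5% held a GATA match, 52.0% CACCC, 33.8% CCAAT and 12.4% TATAAA. These matches describe letters and not bound sites.

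Embryonic globin probe sets had lower mean values in mutant than in control palate, but a single probe set passed the test. Hbb-y fell 1.58-fold on that probe set (log2 fold change -0.66, SE 0.15, adjusted p = 0.0442 by limma, mutant minus control, n = 5 each). Both other Hbb-y probe sets gave -0.30 and did not pass (adjusted p = 0.26 and 0.212 by limma). Log2 fold changes of Hba-x and of the 3 Hbb-bh1 probe sets were between -1.18 and -0.64 without passing. Of all 45101 probe sets, 3.25% were called at an adjusted p under 0.05, 2.18% as lower and 1.08% as higher, so 1 call among 19 member probe sets (5.26%) is near the background. In bulk tissue, fewer red cells and less of a transcript per red cell cannot be told apart.

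Hba-x, the zeta globin gene, read 9.8, 10.1, 9.7, 9.3 and 9.5 in mutant replicates 1 to 5 and 10.5, 9.8, 10.2, 10.9 and 10.2 in control replicates 1 to 5 (log2 values). Mutant replicate 4 was the lowest and control replicate 4 the highest array, and the groups overlapped through mutant replicate 2 and control replicate 2. The log2 fold change was -0.64 (SE 0.20, 95% confidence interval -1.07 to -0.21), with an unadjusted p of 0.00735 and an adjusted p of 0.102 by limma.

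Hbb-y, the epsilon-y globin gene, has 3 probe sets. The called one (1450621_a_at) read 11.7, 11.7, 11.6, 11.5 and 11.1 in mutant replicates 1 to 5 and 12.6, 11.9, 12.0, 12.4 and 12.0 in controls. Every mutant array lay below every control array, a separation seen in that direction for 3.41% of all probe sets. The call was kept without control replicate 1 (-0.56, adjusted p = 0.0464 by limma) or control replicate 2 (0.0406). It was lost without any other array in turn, that is, without mutant replicates 1 to 5 or control replicates 3 to 5, with adjusted p between 0.0623 and 0.091. It was also lost, at 0.0503, with arrays centred on their medians.

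The other Hbb-y probe sets lay near the top of the scale, which ends at 14.3. The brightest (1436717_x_at) read 13.2, 13.4, 13.2, 12.9 and 13.0 in mutants and 13.8, 13.2, 13.2, 13.7 and 13.3 in controls, with overlapping groups. Its log2 fold change was -0.30 (interval -0.60 to 0.00, adjusted p = 0.26 by limma), and 1436823_x_at gave -0.30 (0.212). Control replicates 1 and 4 were again the highest arrays, so the order of arrays was similar while the distances were shorter than on the called probe set. The x in both names marks probes that can also bind related sequences, and the part of brightness or of such binding in the smaller differences was not tested.

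**Figure D1:**
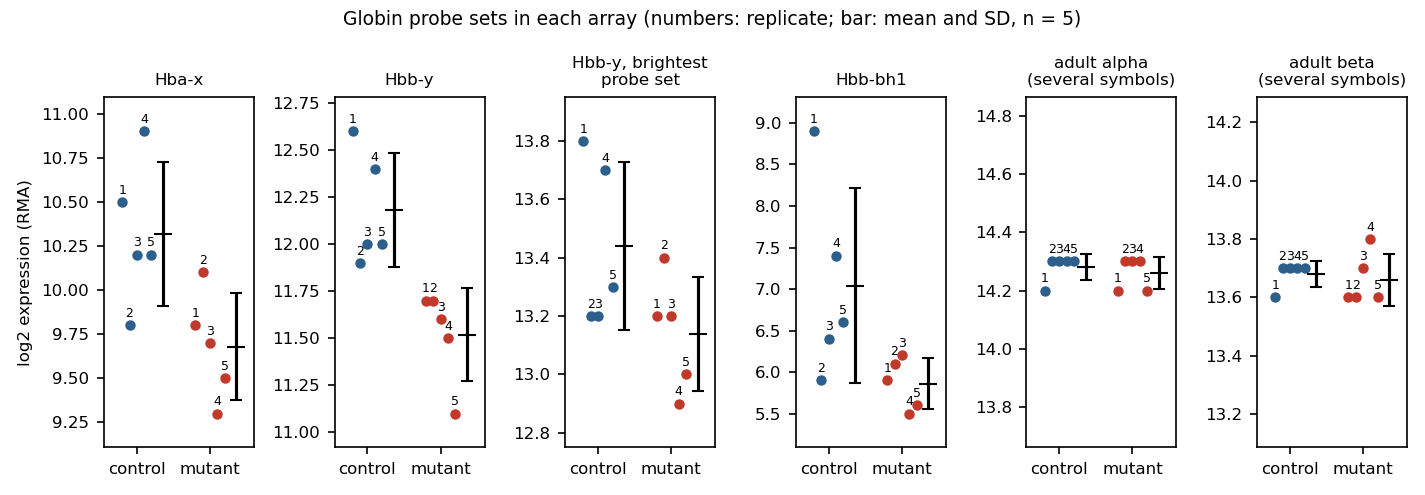
Log2 values of globin probe sets in the 5 control (blue) and 5 mutant (red) arrays, numbered by replicate, with the mean and SD beside each group; each panel has its own log2 axis. The Hbb-y probe set 1450621_a_at separates the groups (11.1 to 11.7 against 11.9 to 12.6). Of the probe sets of several adult globin genes, the brightest alpha one stays between 14.2 and 14.3 and the beta one between 13.6 and 13.8. The scale ends at 14.3, so differences there may be compressed.

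Hbb-bh1, the beta-H1 globin gene, varied more between arrays than any other member. On 1437810_a_at the mutant arrays read 5.9, 6.1, 6.2, 5.5 and 5.6 and the control arrays 8.9, 5.9, 6.4, 7.4 and 6.6. Control replicate 1 stood well above the next array, control replicate 4, and control replicate 2 was level with mutant replicate 1. The log2 fold change was -1.18 (SE 0.46, interval -2.18 to -0.18, adjusted p = 0.181 by limma) with all arrays and -0.72 (interval -1.28 to -0.15, adjusted p = 0.142) without control replicate 1. The other probe sets gave -1.12 and -1.04 with that array and -0.64 and -0.56 without it. On both, control replicate 1 was the highest array too, at 8.8 and 8.6.

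Control replicates 1 and 4 held the 2 highest values on all 7 embryonic globin probe sets, and mutant replicate 4 or 5 the lowest. Control replicate 1 also stands apart over the whole array, with a correlation of 0.978 to 0.982 with the other arrays against 0.99 to 0.996 among those. It was the highest array, alone or tied, on 10 of the 19 member probe sets. Without it 1 member probe set was still called, against 2.72% of all probe sets called as lower, and the median log2 fold change of the 19 was -0.21, against -0.22 with it and 0.0 over all probe sets in either case. Its part in the higher globin values was not tested beyond the values without it.

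**Figure D2:**
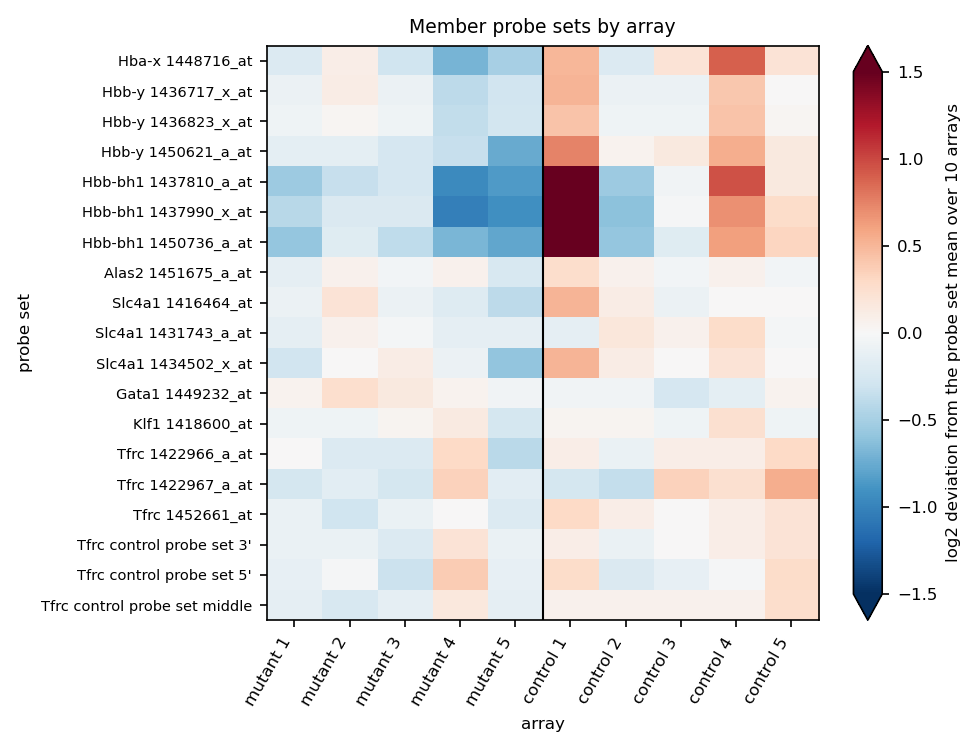
Log2 deviation of each member probe set (rows) in each array (columns) from its mean over the 10 arrays; red is higher, blue is lower, and colours end at 1.5 in either direction. The rows of Hba-x, Hbb-y and Hbb-bh1 are reddest in control replicates 1 and 4 and bluest in mutant replicates 4 and 5, a pattern that the rows of Gata1, Klf1 and Tfrc do not show.

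The globins followed each other across arrays. Over the 10 arrays, Hba-x correlated with the brightest Hbb-y probe set (Pearson r = 0.91, permutation p = 0.00031, adjusted 0.00248; Spearman rho = 0.89, permutation p = 0.00077, adjusted 0.00205). With the called Hbb-y probe set, taken up after its values were seen, r was 0.87 (permutation p = 0.00161, adjusted 0.00644) and rho 0.95 (permutation p = 7e-05, adjusted 0.00056). With Hbb-bh1, r was 0.79 (permutation p = 0.00571, adjusted 0.0152) and rho 0.91 (permutation p = 0.00053, adjusted 0.00205). Without the 2 arrays farthest from the Hba-x median, control and mutant replicates 4, these r values were 0.84, 0.90 and 0.81. On deviations from the group means they were 0.88, 0.72 and 0.63. For Slc4a1 the same measures were r = 0.59 (permutation p = 0.073, adjusted 0.146) and rho = 0.68 (permutation p = 0.0334, adjusted 0.0668), with r at 0.79 without those arrays and 0.41 within groups. For Alas2, Klf1, Gata1 and Tfrc r was 0.48, 0.40, -0.37 and 0.48, with adjusted permutation p of 0.22 to 0.301, and rho 0.40, 0.17, -0.44 and 0.58, with adjusted permutation p of 0.137 to 0.635. Without the 2 arrays farthest from the Hba-x median, r was 0.77 for Alas2, near that of Slc4a1, and 0.45, -0.17 and 0.62 for Klf1, Gata1 and Tfrc. Those values keep control replicate 1, the highest array for Alas2 (8.3) and for the Slc4a1 probe set used (7.6). Its part in these r values was not tested. Within groups, r for Alas2, Klf1, Gata1 and Tfrc was 0.24, 0.26, 0.18 and -0.21. These 8 relations were adjusted together; the arrays share 1 normalization, and 5 come from each group.

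Bright probe sets for adult globin differed little between the groups. The array has 4 that the annotation assigns to several adult globin genes at once, 3 for alpha and 1 for beta. The brightest alpha one averaged 14.26 ± 0.05 for mutants and 14.28 ± 0.04 for controls (log2, SD, n = 5), and the beta one averaged 13.66 ± 0.09 and 13.68 ± 0.04. These values are at or near the top of the scale, so differences there may be compressed. The dimmest alpha one, further from the top, stood at 11.62 ± 0.22 and 11.62 ± 0.11. Its log2 fold change was 0.0 (interval -0.22 to 0.22), and control replicate 1, at 11.5, was not raised. Probe sets with a single adult symbol were dim: Hba-a2 gave a log2 fold change of -0.26 (interval -0.57 to 0.05) at a mean of 6.22 in controls, and Hba-a1 0.04. The pair for Hbb-b2 gave 0.04 (1427865_at) and -0.14 (1427866_x_at). The first turned to -0.04 and -0.03 without mutant replicate 1 or control replicate 3. The second turned to 0.13 without control replicate 1 and to 0.07 with array weights. On the second, control replicate 1 read 7.5, against 5.7 to 6.5 in the other arrays. On the first it read 6.9, within the 6.5 to 7.2 of the others.

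Globins were also compared within the same array, as differences of log2 values. Dim probe sets and those near the top of the scale may follow the amount of transcript less closely, so these differences need not cancel the amount of blood in a sample. Hba-x minus Hba-a2 was 3.72 ± 0.55 in mutants and 4.10 ± 0.48 in controls (exact two-sided permutation p = 0.325). Hbb-y minus Hbb-b2, on the brightest probe set of each, was 6.34 ± 0.29 and 6.68 ± 0.15 (exact permutation p = 0.0952, adjusted 0.143). Hbb-bh1 minus Hbb-y was -7.28 ± 0.16 and -6.40 ± 0.91 (exact permutation p = 0.0317, adjusted over the 3 differences 0.0952; the smallest possible p is 0.00794). The mutant arrays lay between -7.4 and -7.0, and the controls read -4.9, -7.3, -6.8, -6.3 and -6.7, so control replicate 2 fell among the mutants. None of the 3 passed after adjustment, and without control replicate 1 the last difference between groups was -0.50 in place of -0.88 (exact permutation p = 0.0556). Differences from the adult probe sets of several symbols were added after the values were seen, 4 in all and adjusted together. The shift was -0.62 for Hba-x (exact permutation p = 0.0397, adjusted 0.0529) and -0.55 without control replicate 1 (exact permutation p = 0.0635, not adjusted). For Hbb-bh1 it was -1.16 (exact permutation p = 0.0397, adjusted 0.0529) and -0.67 without that array (exact permutation p = 0.0794, not adjusted). For Hbb-y it was -0.28 on the brightest probe set (exact permutation p = 0.198, adjusted 0.198) and -0.64 on the called one (exact permutation p = 0.00794, adjusted 0.0317), so the outcome turned on the Hbb-y probe set. Without control replicate 1 these were -0.17 and -0.52 (exact permutation p = 0.381 and 0.0238, not adjusted). Since the adult values hardly varied, these shifts nearly repeat those of the embryonic globins alone.

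**Figure D3:**
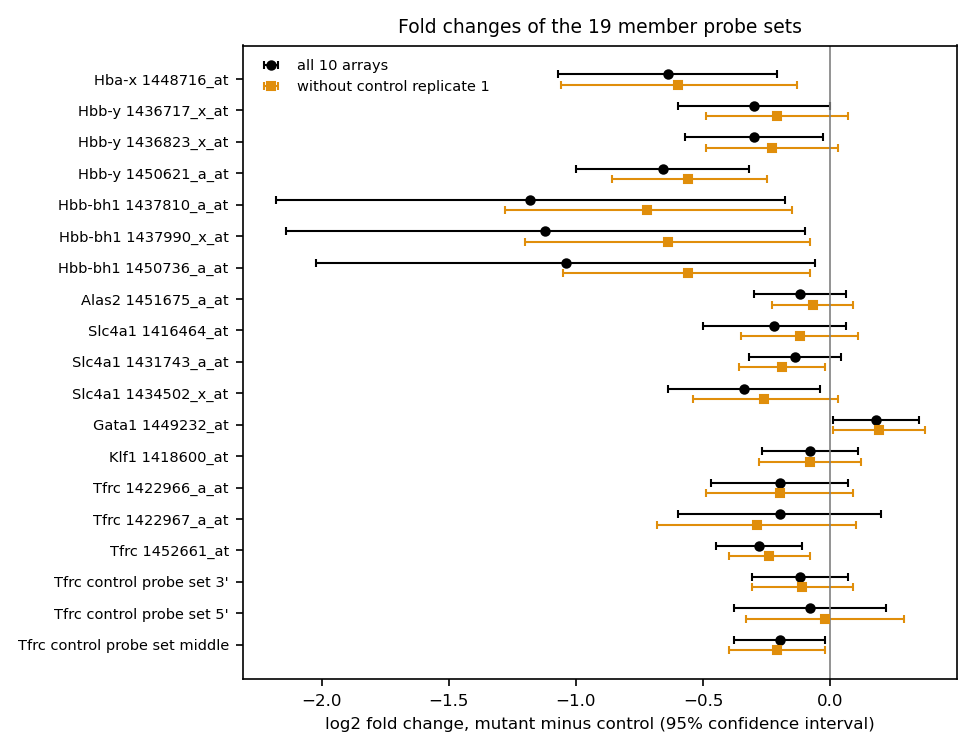
Log2 fold change (mutant minus control) with its 95% confidence interval for each of the 19 member probe sets, with all 10 arrays (black) and without control replicate 1 (orange). Hbb-bh1 moves most when that array is left out, from -1.18 to -0.72 on 1437810_a_at, while Hba-x moves from -0.64 to -0.60.

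Alas2 and Slc4a1, which serve haem synthesis and the red cell membrane, were not called on any of their probe sets by limma. Alas2 read 7.9, 8.1, 8.0, 8.1 and 7.8 in mutants and 8.3, 8.1, 8.0, 8.1 and 8.0 in controls, and the groups overlapped. Its log2 fold change was -0.12 (interval -0.30 to 0.06, adjusted p = 0.449 by limma), or -0.07 without control replicate 1, its highest array. Slc4a1 (1416464_at) read 7.0, 7.3, 7.0, 6.9 and 6.7 in mutants and 7.6, 7.2, 7.0, 7.1 and 7.1 in controls. Control replicate 1 was the highest array here as well, and the log2 fold change was -0.22 with it (interval -0.50 to 0.06) and -0.12 without it. A second Slc4a1 probe set (1434502_x_at) gave -0.34 (interval -0.64 to -0.04, adjusted p = 0.202 by limma), with mutants from 6.2 to 6.9 and controls from 6.8 to 7.3. The third read 3.8 to 4.2, near the low end of the arrays, and gave -0.14.

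The 2 erythroid transcription factors had narrow ranges and were not called. Gata1 read 5.8, 6.0, 5.9, 5.8 and 5.7 in mutants and 5.7, 5.7, 5.5, 5.6 and 5.8 in controls. It was the one member with a positive log2 fold change, 0.18 (interval 0.01 to 0.35, adjusted p = 0.225 by limma), and 0.19 without control replicate 1. Klf1 read 5.9, 5.9, 6.0, 6.1 and 5.7 in mutants and 6.0, 6.0, 5.9, 6.2 and 5.9 in controls, with a log2 fold change of -0.08 (interval -0.27 to 0.11). Both genes thus had overlapping groups, and their intervals leave out a 1.5-fold change in either direction.

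Tfrc has 6 probe sets, all with negative log2 fold changes, from -0.28 to -0.08. The brightest (1452661_at) read 9.5, 9.3, 9.5, 9.6 and 9.4 in mutants and 9.9, 9.7, 9.6, 9.7 and 9.8 in controls. The groups met at 9.6, in mutant replicate 4 and control replicate 3. Its log2 fold change was -0.28 (SE 0.08, interval -0.45 to -0.11), with an adjusted p of 0.0711 by limma over all probe sets. With 1 probe set a gene, where 8.26% of 18194 genes were called, it was 0.0396. The next brightest, 1422966_a_at, gave -0.20 with mutants from 6.4 to 7.1 and controls from 6.7 to 7.1.

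Manufacturer's control probe sets on Tfrc and on 2 other genes allow a check of RNA quality by the signal near the 3′ end minus that near the 5′ end. For Tfrc this was 2.66 ± 0.11 in mutants and 2.70 ± 0.14 in controls (log2, SD, n = 5). For Actb it was 0.58 ± 0.08 and 0.56 ± 0.05, and for Gapdh -0.02 ± 0.08 and 0.02 ± 0.11. The group means differed by less than the SD for all 3 genes. The 5′ control probe set of Tfrc read 3.5 to 4.2, near the low end of the arrays, which limits the check on that gene. Control replicate 1 had the highest Gapdh value, 0.2, and with mutant replicate 4 the lowest for Tfrc, 2.5.

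**Figure D4:**
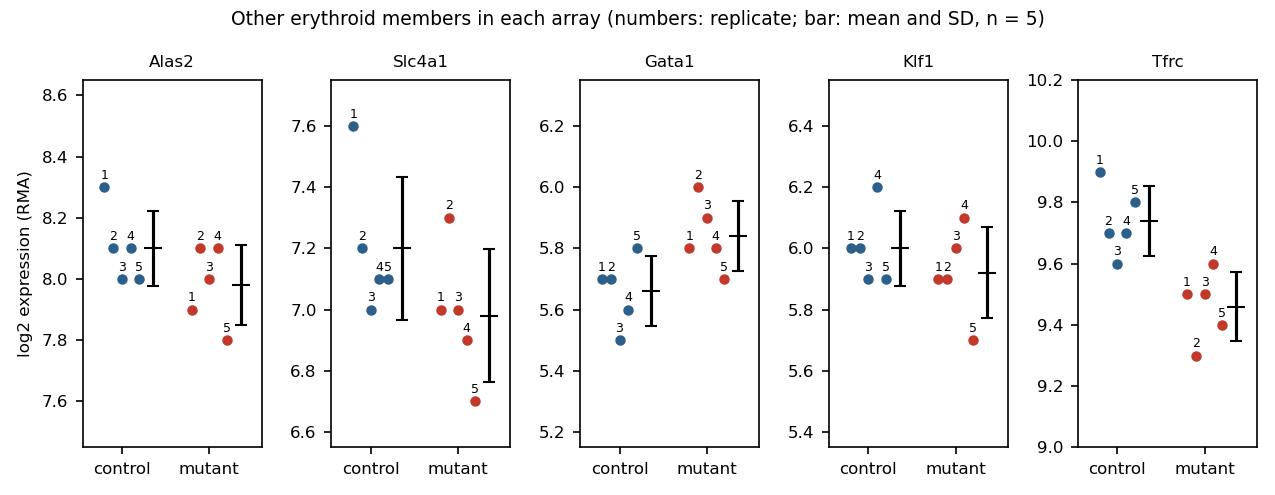
Log2 values of Alas2, Slc4a1, Gata1, Klf1 and Tfrc, 1 probe set each, in the 5 control (blue) and 5 mutant (red) arrays, numbered by replicate, with the mean and SD beside each group; each panel has its own log2 axis. The groups overlap in each panel; Tfrc comes nearest to separating, with mutants from 9.3 to 9.6 and controls from 9.6 to 9.9.

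Over the members as a set, 18 of 19 probe sets (94.7%) had a negative log2 fold change, against 45.6% of all probe sets. A log2 fold change of -0.2 or lower was found for 13 (68.4%), against 12.7%. An unadjusted p under 0.05 with a lower mutant mean was found for 9 of them, against 11.2% of all probe sets, and with a higher one for 1 (19.6% of all probe sets in either direction). Probe sets of 1 gene share a transcript and the globins share arrays of high value, so these counts do not stand for independent genes; 7 of the 8 genes had negative values on every probe set.

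Probe sets in lists of the erythroid programme, drawn up with earlier results of these data known, mostly did not pass. Besides other genes, these lists count members again. They hold Alas2 under haem, Slc4a1 under the membrane, Gata1 and Klf1 under transcription factors and Tfrc under iron. In haem synthesis and its transporters, 1 of 34 probe sets (16 genes) was lower and 33 did not pass; the median log2 fold change was -0.04. The decrease was that of Urod, which encodes uroporphyrinogen decarboxylase. It fell by 0.32 on the log2 scale (SE 0.07, adjusted p = 0.0274 by limma), with mutants from 8.6 to 8.8 and controls from 8.9 to 9.1. That call did not survive leaving out mutant replicate 1, 3 or 5 or control replicate 2, 3 or 5 (adjusted p up to 0.0729). A second Urod probe set gave -0.30 (adjusted p = 0.0883).

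Among 32 probe sets of the red cell membrane and its skeleton (17 genes), limma called none (1 without control replicate 2), and the median was -0.01. The smallest p was that of Aqp1, a water channel found on red cells and capillaries, at 0.34 (interval 0.12 to 0.56, adjusted p = 0.0891). Of 47 probe sets of erythroid transcription factors and partners (18 genes), 1 was higher, and the median was 0.02. With array weights 7 of the 47 were called, against 2901 of all 45101 probe sets. The call without weights belonged to Klf3, which encodes a repressor that binds CACCC motifs (0.48, adjusted p = 0.0293 by limma). It did not pass without mutant replicate 1, 2, 3 or 5 or control replicate 3, 4 or 5 (adjusted p up to 0.0802), and the other 6 Klf3 probe sets gave -0.04 to 0.32. Larger differences that did not pass, picked out after they were seen, were those of Myb, a regulator of blood progenitors, at 0.64, 0.66 and 0.70 (adjusted p = 0.127, 0.168 and 0.13 by limma). All 7 probe sets of Bcl11a, a repressor of embryonic globin genes, had negative values, from -0.46 to -0.06, and none passed (adjusted p from 0.1 to 0.695). Among 33 probe sets of other erythroid genes (16 genes), Car2, encoding the red cell enzyme carbonic anhydrase 2, fell by 0.58 (SE 0.13, adjusted p = 0.0352 by limma); the median was 0.06. Car2 did not pass without mutant replicate 1, 2, 4 or 5 or control replicate 3, 4 or 5 (adjusted p up to 0.0868). Without control replicate 1, calls in either direction were 3 of 34 haem, 3 of 47 transcription factor and 2 of 33 other erythroid probe sets. The count over all 45101 probe sets was then 1988, against 1468 with that array.

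Iron genes held the steadiest call of these lists. Slc40a1 encodes ferroportin, which exports iron from macrophages and other cells. Its 2 probe sets fell by 0.70 (SE 0.08, adjusted p = 0.00319 by limma) and 0.64 (SE 0.11, adjusted p = 0.0151). On the first, the mutants lay between 7.7 and 8.1 and the controls between 8.4 and 8.6, so the groups did not overlap. Both calls were kept without each of the 10 arrays in turn, with adjusted p up to 0.0136 and 0.0472. With the replicate number as a block the first was kept (adjusted p = 0.0494 by limma) and the second was lost (0.0595). Control replicate 1 was not the highest array for either. The other 30 of 32 iron probe sets (14 genes) were not called, and the list's median was -0.05.

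**Figure D5:**
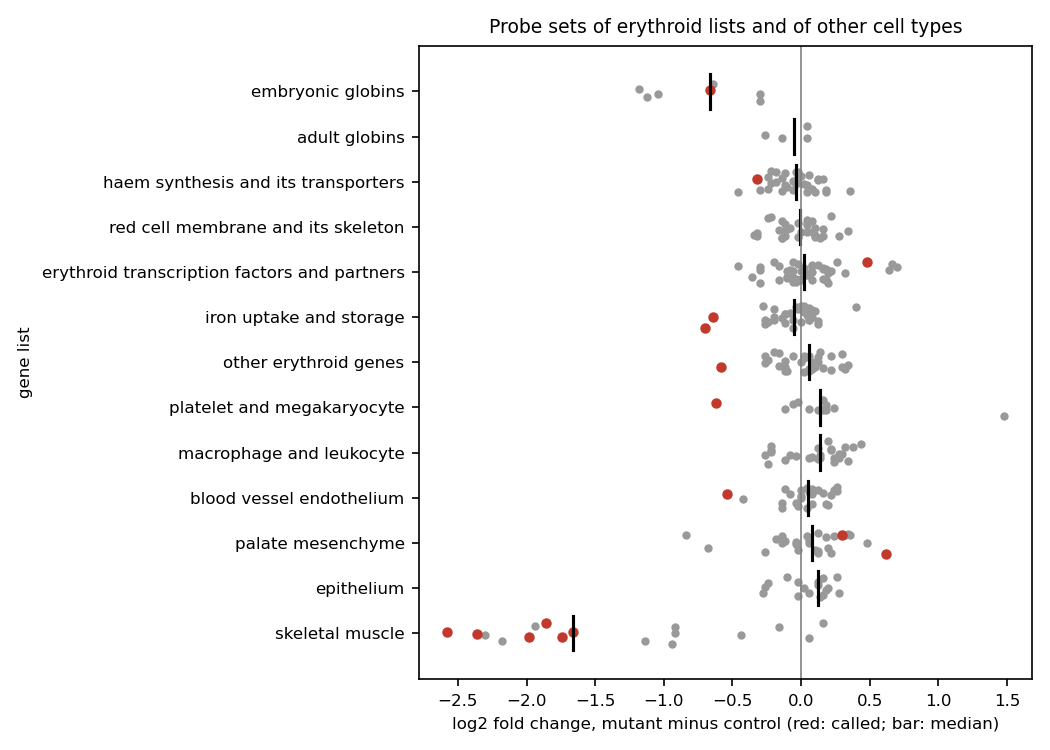
Log2 fold change (mutant minus control) of each probe set in 7 erythroid lists and 6 lists of markers of other cell types, with called probe sets in red and a bar at each list's median. The embryonic globins, which are members, have a median of -0.66 and skeletal muscle -1.66, while the other lists have medians between -0.05 and 0.14. The haem, membrane, transcription factor and iron lists also hold the remaining members that have probe sets.

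Markers of other cell types show what moved beside the globins. Of 12 platelet and megakaryocyte probe sets, Pf4, which encodes platelet factor 4, fell by 0.62 (SE 0.13, adjusted p = 0.0301 by limma), and the other 11 were not called. Pf4 went against its list, of which 4 of 12 probe sets were negative, with a median log2 fold change of 0.14; the largest value, picked out after it was seen, was 1.48 for Ppbp, the pro-platelet basic protein gene (adjusted p = 0.0749 by limma). Pf4 did not pass without mutant replicate 1, 2, 3 or 5 or control replicate 2 or 3 (adjusted p up to 0.078). Of 26 endothelial probe sets, Cldn5, encoding a tight junction protein of vessels, fell by 0.54 (SE 0.11, adjusted p = 0.023 by limma), and 25 were not called. Cldn5 also went against its list, of which 8 of 26 probe sets were negative, with a median log2 fold change of 0.05. Cldn5 did not pass without mutant replicate 1, 3, 4 or 5 or control replicate 3 (adjusted p up to 0.0613). None of 26 macrophage and leukocyte probe sets was called by limma, the smallest p being that of Laptm5 (0.28, adjusted p = 0.0827). None of 17 epithelial ones was called either, Trp63 coming nearest (-0.28, adjusted p = 0.201). Of those 17, 6 were negative, and the epithelial median was 0.12. Without control replicate 1, 2 endothelial, 2 macrophage and 1 epithelial probe set were called in either direction, against 1988 of all 45101 probe sets. The mean log2 level of each of these lists overlapped between groups: 5.94 to 6.27 in mutants and 5.90 to 6.10 in controls for platelets, 8.04 to 8.24 and 7.84 to 8.25 for endothelium, 7.49 to 7.77 and 7.33 to 7.86 for macrophages, and 10.29 to 10.66 and 10.26 to 10.84 for epithelium.

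Palate mesenchyme markers were at 10.82 to 11.00 in mutants and 10.66 to 10.96 in controls. Of 28 probe sets 2 were higher, those of Tbx22 (0.62, adjusted p = 0.0347 by limma) and Prrx1 (0.30, 0.0357); both were lost without mutant replicate 1, 3 or 5 or control replicate 3, 4 or 5, and Prrx1 also without mutant or control replicate 2, and the other 5 Prrx1 probe sets gave -0.12 to 0.12. The largest differences in this list went the other way without passing: Msx1, a transcription factor gene of the palate named here after its values were seen, gave -0.84 and -0.68 (adjusted p = 0.208 and 0.124 by limma). Skeletal muscle was the list with the widest spread, at 5.82 to 8.17 and 7.99 to 9.51. Of its 17 probe sets 6 were lower, among them those of Myf5, Actn2, Tnnt1 and Ttn, with log2 fold changes of -1.86, -1.98, -1.74 and -1.66. The count of muscle calls was 1 to 3 without any one array other than mutant replicate 4 (11) and control replicate 1 (6). Control replicate 1 was the lowest array on the endothelial and mesenchymal means (7.84 and 10.66) and the highest on the epithelial one (10.84). The part of these cell types in the globin values was not tested. The targeted gene Tgfbr2 gave log2 fold changes of -0.08, -0.04 and 0.08 on its 3 probe sets, the second of which turned to 0.03 and 0.01 without mutant or control replicate 3. Their place on the gene, inside or outside the deleted stretch, was not known here, so they check nothing.

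The genes outside the list most like the embryonic globins were found by Pearson r over the 10 arrays with the mean deviation of Hba-x, Hbb-y and Hbb-bh1, among 8354 probe sets with a mean of at least 5 and an SD of at least 0.2. These were Tpgs2, Asb4, Lss, Foxp4, Wrap53, Tulp1, Ddx25, Rangap1, Ccdc86 and Jmjd4, with r between 0.913 and 0.953. None is a globin or belongs to the erythroid lists used here. Only probe sets with 1 symbol were ranked and the members were left out, so the bright adult globin probe sets could not appear. Hba-a1, with means of 4.44 in mutants and 4.40 in controls, was below the cutoff. The absence of globins thus says little. Control replicate 1 was the highest array for all 10, and without control replicates 1 and 4, the arrays farthest from the median of the globin profile, r was 0.547 to 0.937. Tpgs2 was the most alike, at 8.4 to 8.5 in mutants and 9.2, 8.5, 8.6, 8.8 and 8.7 in controls. Their ranges over arrays were 0.7 to 0.9 log2 units, against 0.9 for the brightest Hbb-y probe set, 1.6 for Hba-x and 3.4 for Hbb-bh1. None was called, with adjusted p between 0.0622 and 0.305 by limma.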

How the data were processed

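Total RNA of secondary palate was hybridised to an Affymetrix array, 1 array per sample, per the labels' protocols. The authors deposited RMA values on a log2 scale, the method being named in the submitters' processing notes without a version. RMA equalises the arrays' distributions, so a shift of all transcripts would not show. The values run from 2.2 to 14.3 with 1 decimal, so ties are common, and array medians were 6.4 or 6.5. Mutant minus control was fitted for all 45101 probe sets with lmFit and eBayes of limma 3.58.1, under R 4.3.3, two-sided and with no filter or covariate, with Benjamini-Hochberg adjustment over all of them; a probe set was called at an adjusted p under 0.05. This differs from a test of the brightest probe set of each gene, which was an alternative. Of the probe sets, 34958 had 1 symbol, 932 several and 9211 none; symbols were updated through Entrez IDs in a RefSeq table (GRCm38.p6), where 34754 were found. Named besides the members are up to 4 called probe sets of each list, or the one with the smallest p, and the 10 genes most like the embryonic globins, passing over clone names; all single-symbol adult globin probe sets, the other probe sets of named genes, and Myb, Bcl11a, Ppbp and Msx1 were added after values were seen. The members and lists were chosen with earlier results of these data known. Counts and medians describe lists, without a set test. In simulated arrays of this comparison (45101 probe sets) the fit found 0 of 50 altered probe sets at 1.2-fold, 31 at 1.5-fold, 46 at 2-fold and all 50 at 3-fold, with 6 false calls. Nothing says that each sample is a separate embryo: the p-values reflect only how these samples vary, which may be technical; the number of arrays limits the precision. No 2 arrays were duplicates (at most 26.8% identical values).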

Additional observations from a re-analysis of the deposited data

Results flagged for a closer look

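Mutant replicate 4 stood apart from the other mutants on several probe sets, with a gap to the next array that was large for a group of 5. On Tfrc 1422967_a_at it read 5.5 against 4.9 to 5.0 in the other mutants, on the 3′ control probe set of Tfrc 6.7 against 6.3 to 6.4, and on the middle one 4.6 against 4.2 to 4.3. It was likewise high on Slc40a1 1417061_at (8.1 against 7.7 to 7.8) and on the muscle gene Actn2 (7.8 against 5.7 to 6.3), while it was the lowest array for Hba-x. On the middle control probe set of Tfrc, control replicate 5 read 4.7 against 4.5 in the other controls, a gap of 2 rounding steps. Of 84.0 groups looked at, 6 gave such a gap, and chance gives about 1 in 20.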

How the results depend on the processing

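The count of called probe sets was 1468 and that of member probe sets 1. With array weights 2901 probe sets were called. With the replicate number as a block 98 were called and 0 members, the Hbb-y call going to an adjusted p of 0.0858 by limma. Deviations of same-numbered arrays from their group means correlated at -0.102 to 0.09 over the brighter probe sets. Whether such arrays share more than a number was not tested. Centring on array medians also left 0 members. Leaving out each array in turn gave 464 (without mutant replicate 3) to 1988 (without control replicate 1) called probe sets and 0 to 1 member probe sets. With 1 probe set a gene the 1 called member was Tfrc (adjusted p = 0.0396) and not Hbb-y, whose called probe set is not its brightest. Globin differences within an array ranged from -0.55 to -0.20 (Hba-x minus Hba-a2), -0.43 to -0.28 (Hbb-y minus Hbb-b2) and -1.10 to -0.50 (Hbb-bh1 minus Hbb-y) when arrays were left out; the last passed without control replicate 2 (exact permutation p adjusted = 0.0238). Hbb-y minus Hbb-b2 passed with the mean of all probe sets (-0.37, adjusted 0.0476), and, after seeing the data, with the adult probe set of several symbols together with the called Hbb-y probe set (-0.64, adjusted 0.0317). With the adult probe set alone changed, the first 2 were -0.62 (0.0529) and -0.28 (0.198), neither passing. The replicate block, as sign changes of the 5 paired differences, gave these an adjusted p of 0.5, 0.281 and 0.281. With 5 pairs that test cannot reach a p under 0.05, so it could not have passed any of them. Every member probe set kept its direction in all alternatives run. Fold changes that round to 0 were given no direction, a rule set after the values were seen. The dim Hbb-b2 probe set 1427866_x_at turned to 0.07 with array weights; 1427865_at ranged from -0.04 to 0.15, 1427866_x_at from -0.32 to 0.13 and Tgfbr2 1425444_a_at from -0.09 to 0.03 when arrays were left out. The cause of these changes was not tested. Steps of 0.1 and values near the top of the scale limit small differences.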
